A study of Mus musculus with 37 samples.

Results

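Long CTCF loops are pairs of genome positions, 500 kb to 2 Mb apart, that were joined in a CTCF ChIA-PET experiment on neurons of the adult mouse hippocampus. A loop was a member when the distance between the midpoints of its anchors, the CTCF-bound segments at its ends, was at least 500 kb and at most 2 Mb. This rule took 2581 of the 27786 loops of the data set, 9.29% of them. The PET count of a loop, the number of paired-end tags that join its anchors, played no part in the choice. The study deleted the histone demethylase gene Kdm1a from excitatory forebrain neurons of adult mice and examined transcription and chromatin folding. Its ChIA-PET experiment, in which DNA ends held together with CTCF are ligated and sequenced as pairs, used nuclei sorted from male mice without the deletion. These mice carried Camk2a-creERT2 and CAG-Sun1/sfGFP, were given tamoxifen, and were young adults about a month after it, so the loops are those of Camk2a-expressing neurons. RNA came from the whole hippocampus of 3 control and 3 Kdm1a-ifKO male mice, 1 mouse per library, which includes cells where the Camk2a driver is not active. Kdm1a-ifKO mice were homozygous for the floxed Kdm1a allele, carried Camk2a-creERT2 and received tamoxifen as young adults; controls were littermates without creERT2 that received tamoxifen too, all on a C57BL/6J background. Only 1 ChIA-PET library was analysed, so everything said of loops describes that library with no replicate and no test. The RNA libraries held between 18985542 and 19469947 counts assigned to genes.

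CTCF binds DNA in a direction set by its motif, and the ring-shaped cohesin complex, which reels chromatin in, tends to halt where it meets CTCF bound in a facing direction. The resulting loops bring distant segments together, enclose the genes between them and often mark the borders of contact domains. In neurons, whose adhesion and synaptic genes often lie in large domains with few other genes, such borders limit which enhancers and promoters can meet. As a check of the labelled tissue, all 12 excitatory neuron markers examined were at 5 TPM, the reads of a transcript per kb of its length scaled to the same total in each library, or more in controls. Their summed level was 7280, 6930 and 6680 TPM in the 3 control libraries, and neurogranin (Nrgn), a calmodulin-binding protein of dendritic spines, was the most abundant at 2480 TPM. Markers of the other cells of the tissue were also detected, and no marker of the astrocyte, oligodendrocyte, microglia, endothelial or ependyma and choroid plexus lists was without counts in controls.

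The sequences that carry the orientation of a loop are the motif matches at its anchors. Anchors were searched on both strands for the CTCF core consensus, a pattern of 12 bases, with no mismatch. It was found in 20.6% of the 5162 anchors of long loops, whose median width was 1231 bases, and in 0.44% of 9773 windows of the same lengths placed 20 kb away from them. Of the 10 strongest long loops, 2 had exactly 1 match at each anchor, and both are shown, since they show the arrangement of most long loops with an orientation. The matches lay on the plus strand at the left anchors and on the minus strand at the right anchors, so that they face each other across the loop. Coordinates are of the GRCm38 (mm10) build, sequences were read from the RefSeq genome of that build on the strand given, 5′ to 3′, and capitals mark the match. Each range given is that of the 60 bases shown, with the match in their middle. The left match of the loop of 199 PETs on chromosome 1 lies in an intron of Iqca, within chr1:90060726-90060785 (plus strand), and its right match lies between genes, within chr1:90593013-90593072 (minus strand). The left match of the loop of 87 PETs on chromosome 16 lies in an intron of Bcl6, within chr16:23984339-23984398 (plus strand), and its right match in an exon of the long noncoding RNA gene A230028O05Rik, within chr16:25064726-25064785 (minus strand). The last sequence is from the anchor with the most long loops, chosen after its values were seen, which was the right end of 11 long loops and the left end of none; its match lies between genes, within chr14:77008418-77008477 (minus strand).
Iqca anchor, left: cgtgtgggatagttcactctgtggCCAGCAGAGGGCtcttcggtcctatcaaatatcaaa
Iqca loop, right anchor: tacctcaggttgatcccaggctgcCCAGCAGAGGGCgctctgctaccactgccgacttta
Bcl6 anchor, left: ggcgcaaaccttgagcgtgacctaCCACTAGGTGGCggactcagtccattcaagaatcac
Bcl6 loop, right anchor: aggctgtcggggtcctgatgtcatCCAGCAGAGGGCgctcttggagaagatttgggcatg
Anchor of 11 long loops: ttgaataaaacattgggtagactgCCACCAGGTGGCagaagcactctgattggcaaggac
A match describes these bases only and was not tested as a binding site.

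Most long loops rested on few PETs. Their median PET count was 4, the quartiles were 3 and 7, and the highest count was 251. The lowest count, 3, is also the minimum of the whole data set, and 918 long loops (35.6%) had exactly that many. Loops of 25 to 100 kb and of 100 to 500 kb both had a median of 5 PETs. The share of loops with 10 PETs or more was 17.5% for long loops (451), 20.8% under 25 kb, 26.7% at 25 to 100 kb and 25.8% at 100 to 500 kb, so it was lower at both ends of the range. Long loops thus held 6.45% of all PETs in 9.29% of the loops. Loops over 2 Mb, of which there were 262, went further in the same direction, with a median of 3 PETs and 59.5% of them at 3 PETs. Within the long loops the fall was slight, with a Spearman rho of -0.08 between distance and PET count over 2581 loops that share a library and many anchors. The share with 10 PETs or more was 17.6% at 500 to 750 kb, 19.6% at 750 to 1000 kb, 17.2% at 1000 to 1500 kb and 8.86% at 1500 to 2000 kb. By this share the drop lay in the 158 longest. The mean PET count fell at each step, with 8.3, 7.46, 6.84 and 5.16 in the same order. The share at 3 PETs rose at each step, with 33.3%, 36.0%, 37.3% and 47.5%.

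**Figure D1:**
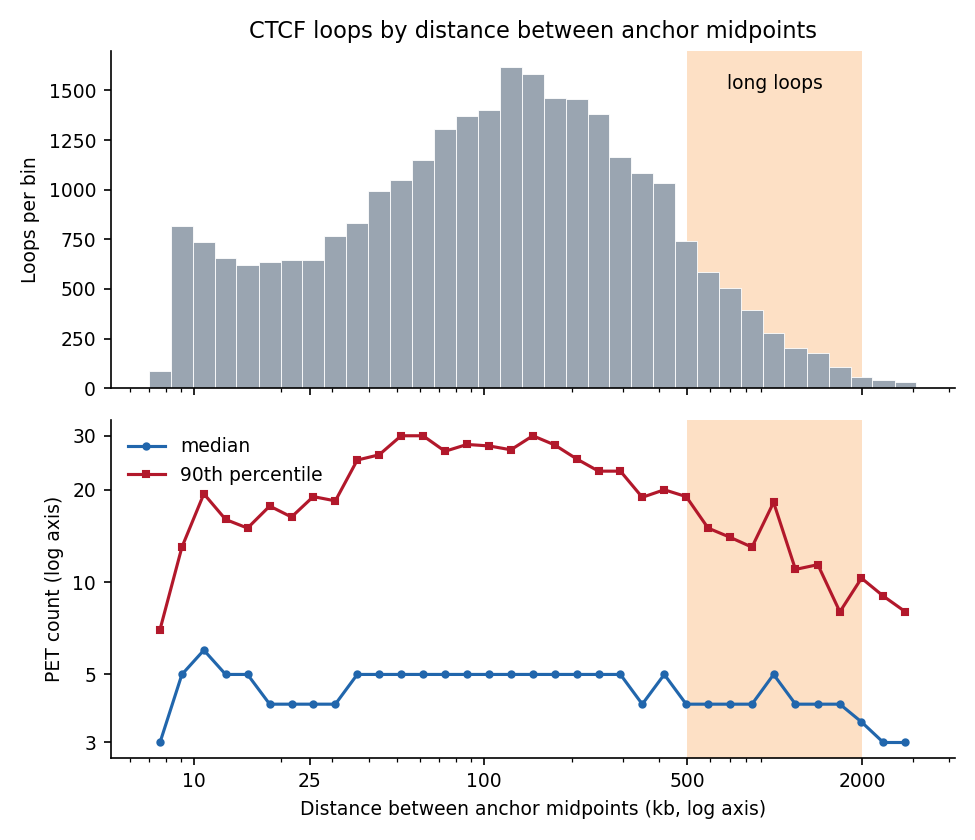
Number of CTCF loops (top) and their median and 90th percentile PET count (bottom) in bins of equal width on a log scale of the distance between anchor midpoints in kb; the shaded range holds the 2581 long loops. The number of loops falls across the shaded range, and the 90th percentile of all long loops is 14 PETs, against 16 for loops under 25 kb, 26 at 25 to 100 kb and 25 at 100 to 500 kb.

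The limits of distance cut through a continuous range. The longest loop below the range, at 499.7 kb on chromosome 5, had 7 PETs and enclosed Slc4a4, a sodium bicarbonate cotransporter of astrocytes. The shortest loop within it, at 500.1 kb on chromosome 7, had 6 PETs and began at Xylt1, which starts the sugar chains of proteoglycans. At the other limit, the longest member spanned 1985.5 kb on chromosome 8 between Wwox, a large tumour suppressor gene, and a segment past the transcription factor gene Maf, with 15 PETs. The next longer loop, at 2008.6 kb on chromosome 6, had 3 PETs. The median distance of the long loops was 741.8 kb, and 51.6% of them spanned less than 750 kb.

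Long loops shared anchors with one another. After overlapping anchors were joined, the 5162 ends fell on 3333 separate anchors. Of these, 2282 (68.5%) served 1 long loop, 1051 served more than that, and 83 served 5 or more. An anchor kept its side: among the 1051 shared anchors, 977 (93%) were the left end of all their long loops or the right end of all of them. The most used anchor, on chromosome 14, was the right end of 11 long loops that began 503 to 890 kb away. A pair of anchors on chromosome 11 served 10 long loops each, the left one as left end only, with 142 PETs in all, and the right one as right end only, with 78 PETs in all. With 1 mismatch allowed, the right one of these held 6 motif matches on the minus strand and none on the plus strand, but the left one held 1 on each strand, and the anchor on chromosome 14 held 1 on the plus and 2 on the minus strand. The other named anchors, on chromosome 18 and beside the transcription factor gene Foxo1 on chromosome 3, were each the left end of 9 long loops. Each of these anchors thus had all its long-loop partners on 1 side. Contact maps were not examined.

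Many long loops contained shorter ones. The median long loop enclosed 1 shorter loop and the upper quartile was 5, while 868 long loops (33.6%) enclosed none. The loops that enclosed none were not weaker, with a median of 5 PETs. Among the 1713 with shorter loops inside, 395 (23.1%) had more PETs than every one of them. Shorter loops also used the same ends: 1069 long loops (41.4%) shared both anchors with a shorter loop, 969 (37.5%) shared 1 anchor and 543 (21%) shared none. The median PET count was 4 in each of these 3 groups.

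Chromosomes differed in their share of long loops. Of the loops on chromosome 13, 166 of 869 (19.1%) were long, and on chromosome 17, 58 of 1175 (4.94%). Over the 19 autosomes, the share of long loops fell with the number of protein-coding genes per Mb, with a Spearman rho of -0.94. The number of long loops per 10 Mb showed no such order (rho -0.03), whereas the number of all loops per 10 Mb rose with gene density (rho 0.85). The order depends on which genes are counted: with all counted genes, a density added after these values were seen, the same rho values were -0.54, -0.01 and 0.51. All are descriptions of 19 points from the same library. With either density, long loops per 10 Mb followed gene density less than all loops did. Long loops ranged from 6.11 per 10 Mb on chromosome 17 to 13.8 on chromosome 13. Chromosome X stood apart with only 10 long loops among 55 loops in all, 0.585 per 10 Mb, in a library from male nuclei. No loop of the data set lay on chromosome Y.

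**Figure D2:**
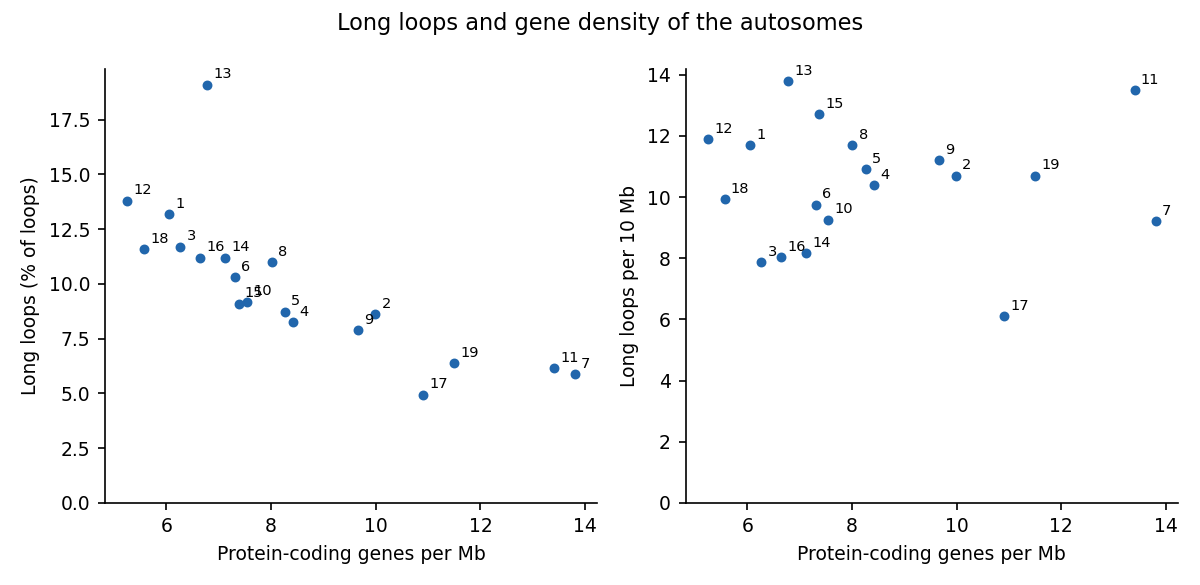
Each point is an autosome, labelled by its number, with its protein-coding genes per Mb on the horizontal axis; the vertical axis is the percentage of its loops that are long (left) and its long loops per 10 Mb (right). The percentage is highest on chromosome 13, at 19.1, and lowest on chromosome 17, at 4.94, while the number per 10 Mb shows no order.

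Motifs at the ends of long loops faced each other more often than at the ends of shorter ones. A loop could be given an orientation when each anchor had full matches of the core consensus on 1 strand only, which left 134 of the 2581 long loops. In 119 of these (88.8%, Wilson 95% interval 82.4 to 93.1) the motifs were convergent, with the left one on the plus strand and the right one on the minus strand. Intervals here and for PET counts cover counting error only, and loops that share anchors are not independent. The remaining 15 had both motifs on the same strand, and no long loop had motifs that faced away from each other. The convergent share was 27.5% of 142 loops under 25 kb, 60.2% of 392 loops of 25 to 100 kb and 74.7% of 641 loops of 100 to 500 kb. Taking single anchors adds loops with a match at only 1 end. Of the left anchors of long loops with matches on 1 strand, 479 held the plus and 42 the minus strand, and of the right anchors 486 held the minus and 51 the plus strand. Among long loops of 3 PETs the convergent share was 75% of 24, and among those of 10 to 29 PETs it was 93% of 43. The anchors of long loops of 10 to 29 PETs also held a match more often, 32.7% against 15.0% at 3 PETs, but they were wider, with medians of 2485 and 936.5 bases. The GC content of anchors, which a motif search can follow, was 45.3% at the median for long loops and 50.0% for loops under 25 kb.

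**Figure D3:**
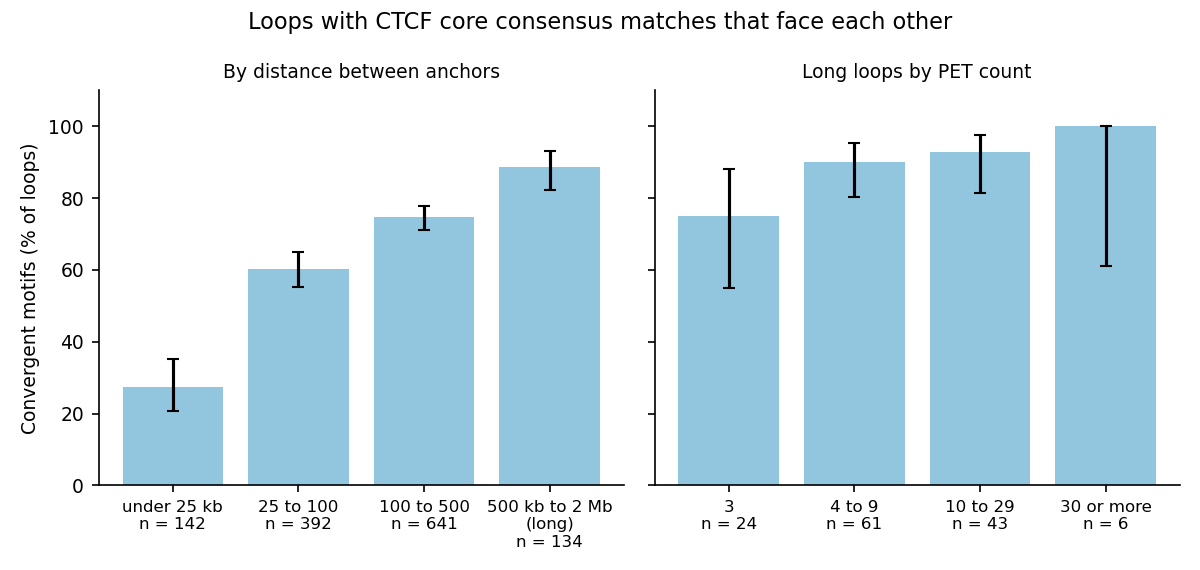
Percentage of loops with convergent CTCF core consensus matches among loops with matches of a single strand at each anchor, by distance class (left) and for long loops by PET count (right); error bars are Wilson 95% intervals and n is the number of loops with an orientation. The share rises from 27.5% for loops under 25 kb to 88.8% for long loops.

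The enclosed segments covered a large part of the genome and were gene-poor. Together the long loops, from outer edge to outer edge, covered 843 Mb, or 32.0% of the genome. Wholly inside at least 1 of them lay 12135 of the 48349 counted genes with a position (25.1%) and 4908 of 21695 protein-coding genes (22.6%). Counted by start site, so that genes cut by the edge of a loop are kept, there were 6.21 protein-coding genes per Mb in the covered segments and 8.16 over the whole genome. The median long loop held 7 genes, of which 2 were protein-coding, and the quartiles were 4 and 12 genes. Only 24 long loops (0.93%) held no gene at all, but 452 (17.5%) held no protein-coding gene and 773 held exactly 1. Gene classes differed in how often they were enclosed: 33.3% of 3840 lincRNA genes and 11.8% of 2306 unprocessed pseudogenes lay inside. Among the 4908 protein-coding genes inside, 12.8% were 100 kb or longer, against 11.1% of those in no long loop, and the median lengths were 17.7 and 17.6 kb.

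Loops with many genes were the weaker ones. Of the long loops with 5 or more protein-coding genes, 7.14% had 10 PETs or more, against 19.6% of those with 1 to 4 and 21.2% of those with none. The median distances of these 3 groups were close, at 730, 742 and 742 kb. Over all 2581 long loops the Spearman rho between PET count and number of genes was -0.13, and between distance and number of genes it was 0.21.

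The ends of long loops lay away from gene starts. In 62.2% of long loops, no start site of a protein-coding gene was within 10 kb of either anchor. The same share was 36.0% for loops under 25 kb, 30.8% at 25 to 100 kb, 47.4% at 100 to 500 kb and 45% over 2 Mb, so it was highest in long loops but did not rise steadily. Both anchors had such a start site in 83 long loops (3.22%), against 23.6% of loops of 25 to 100 kb and 12.0% of loops of 100 to 500 kb. When only genes at 5 TPM or more were counted, both anchors had one in 37 long loops (1.43%). Genes whose body came within 10 kb of an anchor numbered 2625, of which 1740 were protein-coding, 8.02% of all protein-coding genes.

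The strongest long loop joined Tyw1 with Caln1 on chromosome 5, over 583.1 kb, by 251 PETs (exact Poisson 95% interval 221 to 284). Tyw1 makes a modified base of phenylalanine tRNA, and Caln1 encodes the neuronal calcium sensor calneuron. Caln1, which lies inside the loop, was at 99.3 TPM in controls, although a gene on the other strand overlaps it and the strand setting of the counting is not given. The third strongest, of 155 PETs (132 to 181) over 565.8 kb, began close to where the first ended and ran from Galnt17, an enzyme of protein O-glycosylation, to Auts2, a regulator of neuronal development. Galnt17 was the only protein-coding gene inside, at 92.7 TPM. The right end of the first loop and the left end of the other overlap, so the 2 loops lie side by side.

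The second strongest long loop, on chromosome 1, joined Iqca with the vicinity of Cops8 by 199 PETs (172 to 229) over 534.2 kb. Iqca encodes an IQ motif protein and Cops8 a subunit of the COP9 signalosome. Its only protein-coding gene was Ackr3, a receptor that takes up the chemokine Cxcl12, at 21.9 TPM. On chromosome 7, a loop of 122 PETs (101 to 146) over 501.2 kb enclosed Gpr139, Gp2 and Umod. Umod, the uromodulin of the kidney, and Gp2, a glycoprotein of the pancreas, had no counts in any of the 6 RNA libraries, and the receptor gene Gpr139 was at 1.24 TPM. On chromosome 1, Kcnh1 and Hhat lay at the ends of a loop of 119 PETs (98.6 to 142) over 521.3 kb. Kcnh1, a voltage-gated potassium channel that overlaps Hhat on the other strand, was at 39.5 TPM, and Hhat, which attaches palmitate to hedgehog proteins, at 0.405 TPM. A pair of loops on chromosome 8, of 96 and 80 PETs, shared their right end and both enclosed Sox1, a transcription factor of neural progenitors, at 10.0 TPM.

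The other strong loops also enclosed few genes. A loop of 94 PETs on chromosome 5 ran from the cilium gene Cfap299 to Bmp3, a secreted growth factor, and enclosed no gene with counts among its protein-coding ones. Over 1080.6 kb, the loop of 87 PETs on chromosome 16 began in the transcriptional repressor gene Bcl6, at 38.3 TPM, and enclosed Lpp, an adhesion site protein, at 2.71 TPM. On chromosome 13, 81 PETs over 1030.6 kb joined Plk2, a kinase induced by synaptic activity, with Gpbp1, which binds GC-rich promoters. Plk2 was at 207 TPM, the highest level inside any of the 10 strongest long loops. These 10 loops held 1 to 10 genes each.

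Motif matches at these 10 loops lay mostly on the plus strand at the left anchors and on the minus strand at the right anchors. A full match was present at both anchors in 2 of them, those shown above. With 1 mismatch allowed, each of the 10 right anchors had more matches on the minus strand than on the plus strand. In 2 of these right anchors, 1 match also lay on the plus strand. Of the left anchors, 2 had 3 matches on the plus strand and 2 on the minus strand, 2 had none, and the other 6 had matches on the plus strand only.

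The long loop with the most genes spanned 1981.2 kb of chromosome 7 and held 185 genes, 105 of them protein-coding, with 5 PETs (1.62 to 11.7). Of its genes, 47 protein-coding ones were at 5 TPM or more, also the highest number of any long loop. The highest was Slc17a7, the vesicular glutamate transporter of excitatory neurons, at 1030 TPM, and Shank1, a scaffold of the postsynaptic density, was at 232 TPM. It also enclosed 117 shorter loops, the strongest of 62 PETs. At the opposite end was a loop of 1905.5 kb on chromosome 11, the longest without a protein-coding gene inside. It had 11 PETs (5.49 to 19.7), enclosed no shorter loop and joined Abca13, a lipid transporter gene with 6 counts over the 3 controls, with Vwc2, a secreted BMP antagonist at 2.98 TPM.

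Some genes were so long that whole loops lay within them. In 34 cases a long loop was contained in a protein-coding gene, and these fell in 23 genes or overlapping gene pairs. The strongest of these loops, in the ion channel gene Trpm3 on chromosome 19, had 32 PETs over 549 kb. Camta1, a calmodulin-binding transcription activator, held 6 such loops, and their right ends lay within a few kb of each other. In Cntnap2, a neurexin family gene, a loop of 1640 kb had 5 PETs. Others lay in Ptprt, Dpp6, Pcdh15, Csmd1, Auts2 and Robo1, which encode adhesion molecules, a channel subunit and regulators of neuronal growth. These are a selection: the 23 also included Fgfr2, Prkg1, Wwox, Immp2l and Macrod2, and functions were not compared over the whole set.

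Genes inside long loops were expressed somewhat less often than others in the control hippocampus. A mean of at least 5 TPM over the 3 control libraries was reached by 2837 of the 12135 enclosed genes (23.4%), against 26.2% of all counted genes and 27.1% of genes in no long loop (Wilson intervals 22.6 to 24.1 inside and 26.7 to 27.6 in no long loop). By library, the enclosed share was 23.4%, 23.4% and 23.6%. For protein-coding genes the shares were 50.9% inside (50.8%, 50.9% and 51.1% by library) and 53.0% in no long loop (52.9%, 52.9% and 53.3%). Their median levels were 5.54 TPM inside and 6.96 TPM in no long loop. For protein-coding genes the intervals, 49.5 to 52.3 and 52.3 to 53.8, touch. Enclosed genes made up 19.2% of all control TPM. Genes at the anchors stood higher, with 63.7% of 1740 protein-coding genes at 5 TPM or more (63.3%, 63.6% and 64.1%) and a median of 12.4 TPM. Genes near anchors of any kind may differ from others, and the loop classes were not compared in this respect.

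The share of expressed genes fell steadily with PET count only when loops of many genes were included. Over all long loops, 50.1% of the 3224 protein-coding genes inside loops of 3 PETs were at 5 TPM or more, 49.0% of 2808 at 4 to 9 PETs, 39.2% of 618 at 10 to 29 PETs and 30.2% of 192 at 30 PETs or more. In the last class a single loop of 61 PETs held 59 of the 192 genes, and 1 of these was at 5 TPM or more. Leaving out all 237 loops with 10 or more protein-coding genes, whether these were expressed or not, a step chosen after seeing the data, gave 55.3%, 58.1%, 57.8% and 50.5% in the same order. So there was no steady fall with PET count outside loops of many genes. The same gene can lie in loops of several of these classes. By distance, 52.7% of genes inside loops of 500 to 750 kb were at that level and 47.5% inside those of 1500 to 2000 kb. By loop, 840 of the 2581 (32.5%) held no protein-coding gene at 5 TPM or more, and 388 of these did hold a protein-coding gene.

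**Figure D4:**
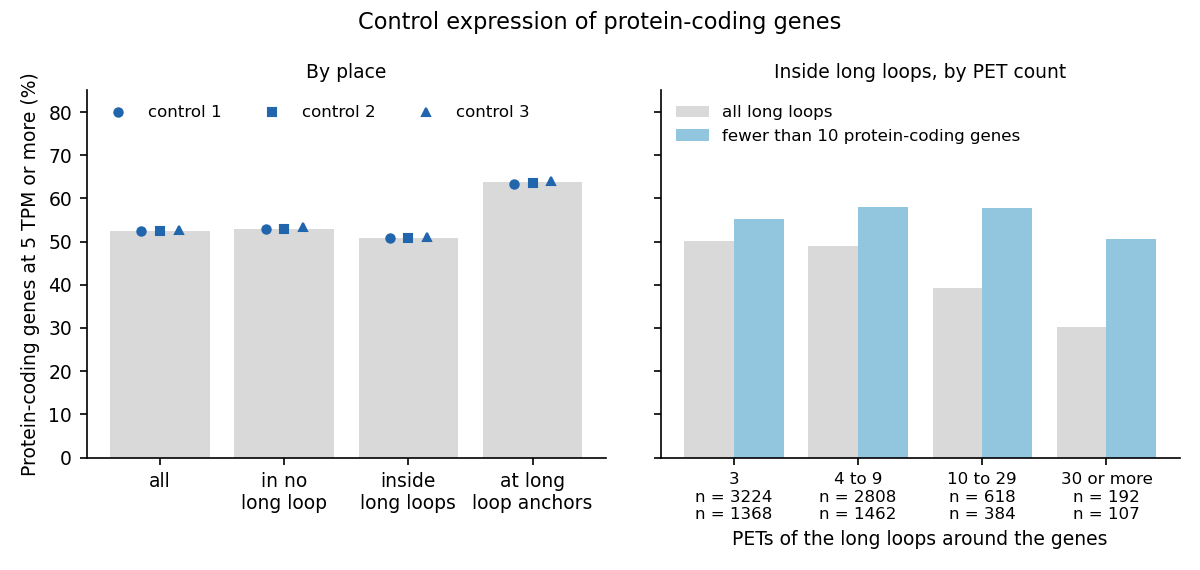
Left, percentage of protein-coding genes at 5 TPM or more in controls, as a bar for the mean of the 3 control libraries and a point for each library, for all genes and by place; right, the mean for genes inside long loops of each PET count, for all long loops (grey) and for those with fewer than 10 protein-coding genes (blue), with n the number of genes in each. The share is 63.7% at anchors and 50.9% inside, and inside loops of 30 PETs or more it is 30.2% of 192 genes, or 50.5% of 107 without loops of many genes.

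Among enclosed transcripts, Nrgn came highest, followed by Calm3, a calmodulin gene, at 2450 TPM and Hsp90ab1, a chaperone, at 2400 TPM. Atp1b1, the beta subunit of the sodium pump, was at 2000 TPM. The strongest long loop around any of these 10 genes had 24 PETs and enclosed Atp1b1, and the others had 3 to 11 PETs. The longest genes wholly inside a long loop were Ptprt, a receptor tyrosine phosphatase, at 36.6 TPM and Frmpd4, a scaffold of dendritic spines, at 40.1 TPM. After these came Zfhx3, a homeodomain factor, Pard3b, a polarity protein, and Sdk1, an adhesion molecule of synaptic layers, all under 2.2 TPM.

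Gene families and functional lists differed in how many of their members were enclosed; they are given as descriptions beside the 22.6% of all protein-coding genes. Of 142 developmental transcription factors, 76 (53.5%) lay wholly inside a long loop, among them Pax6, Sox2, Otx2 and Prox1. Only 50 of the 142 reached 5 TPM in controls. Of 105 genes of synaptic adhesion and axon guidance, 13 (12.4%) lay inside and 33 (31.4%) came within 10 kb of an anchor, against 8.02% for all protein-coding genes. A long gene can reach an anchor more easily and fit inside a loop less easily, and lengths were not matched. Glutamate and GABA receptor genes were inside in 11 of 40 cases (27.5%) and voltage-gated channel genes in 12 of 43 (27.9%). Among 12 architectural genes, Ctcf itself, the cohesin subunits Rad21 and Stag1, and the cohesin regulators Wapl and Pds5b lay inside long loops.

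Clustered families gave the widest range. Keratin genes and their associated proteins were inside in 74 of 109 cases (67.9%), with 48 of them in a single loop of 987 kb and 9 PETs on chromosome 11. Serpin protease inhibitors followed with 39 of 61 (63.9%), and Hox genes with 23 of 39 (59.0%), none of which was at 5 TPM. Olfactory receptor genes were near the general share, with 285 of 1105 (25.8%), and no member was expressed at that level; 74 of them lay in 1 loop of 1290 kb and 4 PETs on chromosome 7. Other families were enclosed less often: 64 of 394 Zfp genes (16.2%), 1 of 69 protocadherins (1.45%), Pcdh8, and none of 42 beta-defensins.

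The Kdm1a-ifKO libraries then showed what genes in and at these loops did after the deletion; the loops themselves were measured only in mice without it. Kdm1a had 1521, 1545 and 1481 counts in the controls and 764, 726 and 748 in the Kdm1a-ifKO libraries. The groups did not overlap, and the log2 fold change was -1.07 (SE 0.06; edgeR quasi-likelihood test, Benjamini-Hochberg adjusted p 6.24e-08), lower in 3 of 3 Kdm1a-ifKO mice. Reads of the overlapping gene Luzp1 on the other strand could not be told apart from it. The RNA that remained is measured in a tissue where other cells keep the gene. In bulk samples like these, fewer cells of a type and less RNA per cell cannot be told apart.

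Enclosed genes rose about as often as genes in general. With an adjusted p under 0.05 and a log2 fold change over 0.5, 137 of the 3862 tested enclosed genes were higher in Kdm1a-ifKO (3.55%), beside 3.15% of all 16799 tested genes. With a log2 fold change under -0.5, 10 were lower (0.259%), beside 0.280% of all tested genes. At the anchors, 42 of 1585 tested genes were higher (2.65%) and 7 lower (0.442%). The counts of lower genes depend on single libraries: leaving out the second Kdm1a-ifKO library gave 33 inside and 15 at the anchors, and leaving out the first gave 6 and 1. In each of these sets no called gene had overlapping groups. The same held for all 530 higher and all 47 lower genes of the data set, so it is not particular to long loops. The median log2 fold change was 0.009 inside and -0.016 at the anchors, beside -0.003 for all tested genes with a position. Of the 12135 enclosed genes, 8273 had too few counts to be tested, so these counts describe the tested members only. Counts in either group were enough for a test. Genes silent in controls could thus be tested when high in Kdm1a-ifKO, whereas genes silent in both groups were left out. The shares of higher genes lie near that of all genes, and neither direction marks anything particular to long loops. Marker lists of other cells differed. The 12 astrocyte markers, of which Aldoc was the most abundant at 1050 TPM, summed to 3660, 3440 and 3660 TPM in controls. In Kdm1a-ifKO mice they summed to 3910, 4110 and 4230 TPM, with no overlap. None of these 12 was called or without control counts, and their part in the result was not tested. Microglia sums, given below, did not overlap either. The groups overlapped for oligodendrocyte markers, at 4030, 3620 and 3760 TPM in controls and 3390, 4250 and 4320 TPM in Kdm1a-ifKO mice. They also overlapped for the endothelial, interneuron, and ependyma and choroid plexus lists.

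The largest increases inside long loops were in genes nearly silent in controls. They were ranked by log2 fold change among called genes with 1 CPM or more in the higher group and no overlap between groups. A gene with almost no control counts could enter this ranking only through its Kdm1a-ifKO counts. Such genes come first by construction, so their low control level is not a separate result. C1ql4, a secreted C1q-like ligand of an adhesion receptor, had 0.0522, 0 and 0.0537 CPM, counts scaled to the size of the library, in the controls and 5.65, 4.97 and 6.31 CPM in the Kdm1a-ifKO mice. On 2 control counts in all, the ratio of 163 has an exact 95% interval of 44.6 to 1350, which like those of the ratios below covers counting error only, and the edgeR quasi-likelihood adjusted p was 7.3e-08. Tmem30b, a subunit of lipid flippases, rose from 0, 0 and 0.0537 to 2.88, 3.35 and 2.67 CPM. Its ratio of 171 (30.3 to 6790) rests on a single control count. Boll, an RNA-binding protein of germ cells, went from 0.0522, 0.0524 and 0 to 1.13, 1.47 and 2.05 CPM, a ratio of 44.7 (12.0 to 375). That each Kdm1a-ifKO library lay above every control in these 3 genes was a condition of their choice.

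Prph, which encodes the intermediate filament peripherin of peripheral neurons, was the most abundant of these genes. It had 1.57, 1.26 and 1.02 CPM in controls and 36.3, 40.8 and 36.4 CPM in Kdm1a-ifKO mice. Its log2 fold change was 4.87 (SE 0.13; edgeR quasi-likelihood adjusted p 5.99e-11). Prph, C1ql4 and Aqp5 lay inside the same long loop of 885 kb and 3 PETs on chromosome 15. Aqp5, a water channel of gland cells that also reached an anchor of this loop, went from 0.261, 0.105 and 0.161 to 2.31, 2.43 and 3.49 CPM. Only that loop enclosed any of the 3 genes, so they are 1 place and not separate examples.

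Klf14, a zinc-finger factor gene, had 0.157, 0.21 and 0.107 CPM in controls and 4.11, 3.5 and 3.28 CPM in Kdm1a-ifKO mice. Cldn3, a claudin of tight junctions, had 0.47, 0.21 and 0.0537 CPM in controls and 4.26, 4.56 and 3.9 CPM after the deletion. Rspo1, a secreted enhancer of Wnt signalling, rose from 0.679, 0.996 and 0.698 to 12.6, 10.2 and 13.8 CPM. Annotated genes on the other strand overlap Cldn3 and Rspo1, so their values are uncertain. Gabre, the epsilon subunit of GABA-A receptors, rose by a log2 fold change of 2.75 and Rrad, a Ras-related inhibitor of calcium channels, by 2.58. Genes on the other strand also overlap Boll and Rrad, so these are uncertain too. The strongest long loop around these 10 genes had 7 PETs.

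**Figure D5:**
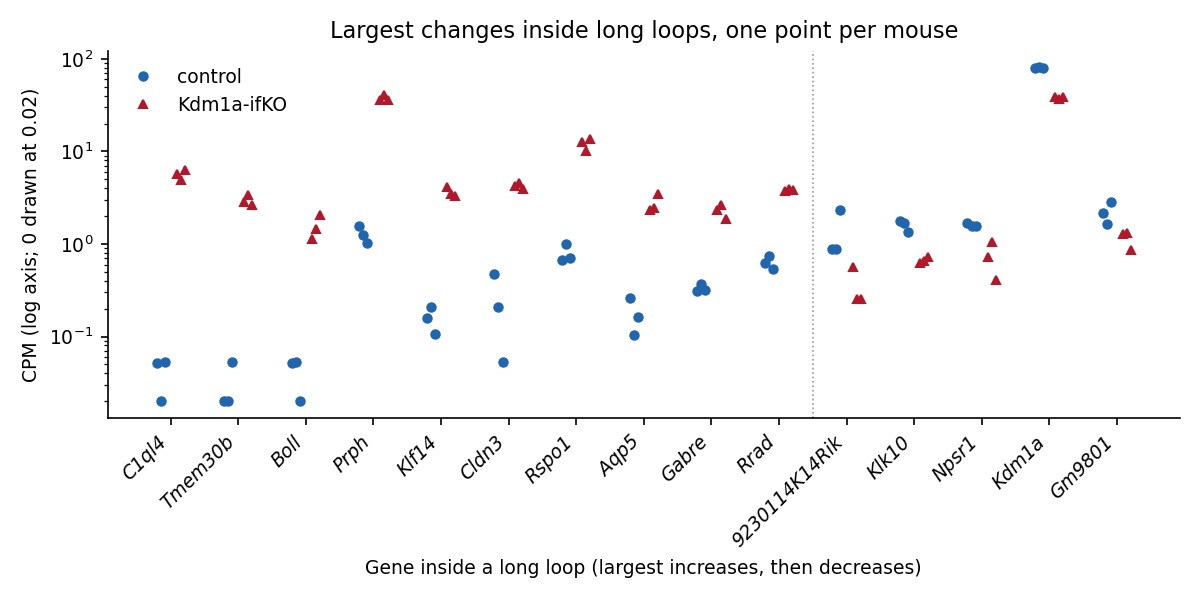
CPM on a log axis for the 10 largest increases and 5 largest decreases among genes inside long loops, with a circle for each control mouse and a triangle for each Kdm1a-ifKO mouse; values of 0 are drawn at 0.02. The genes were chosen among those whose groups do not overlap, and Prph reaches 40.8 CPM.

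Decreases inside long loops were smaller. After Kdm1a, the lowest adjusted p among the 5 largest was that of Klk10, a serine protease of the kallikrein family, which went from 1.78, 1.68 and 1.34 to 0.616, 0.659 and 0.718 CPM (log2 fold change -1.26, SE 0.27, edgeR quasi-likelihood adjusted p 0.0107). It lies in the loop with the most genes, and 2310002F09Rik on the other strand overlaps it. Npsr1, the receptor of neuropeptide S, which is both inside and at an anchor, fell from 1.67, 1.57 and 1.56 to 0.719, 1.06 and 0.41 CPM (edgeR adjusted p 0.0411), with Gm15600 on the other strand. The noncoding genes 9230114K14Rik and Gm9801 completed the 5, with adjusted p-values of 0.0363 and 0.0471 by edgeR. Each of the 5 apart from Kdm1a lost its call in at least 1 alternative analysis. The control values of 9230114K14Rik were 0.888, 0.892 and 2.31 CPM, so 1 library set much of its change, and C130083M11Rik on the other strand overlaps it.

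At the anchors, the largest increases apart from Tmem30b, Boll and Aqp5 were in Bfsp1, Fignl2, Piezo2, Plekhd1, Map3k15, Chrna3 and Gja3. Bfsp1 encodes a filament protein of the lens, Piezo2 a mechanically gated channel, Chrna3 a nicotinic receptor subunit and Gja3 a gap junction protein. Their log2 fold changes ran from 2.29 for Bfsp1 to 1.57 for Gja3, and genes on the other strand overlap Bfsp1 and Map3k15. Gja3 lost its call in 5 alternative analyses. Plekhd1, a pleckstrin homology domain protein, was the most abundant, with 4.81, 4.3 and 3.27 CPM in controls and 13.7, 15.0 and 12.9 CPM in Kdm1a-ifKO mice. Piezo2 had 1.36, 0.839 and 1.5 CPM in controls and 4.47, 4.71 and 4.21 CPM after the deletion. Here too the genes were chosen among those whose groups did not overlap. Of the 7 decreases, the 5 largest among genes at 1 CPM or more in controls were in Spata18, Npsr1, Enkur, Nyap2 and Capsl, each of which lost its call in at least 1 alternative analysis, with log2 fold changes of -1.41, -1.12, -0.76, -0.72 and -0.69. Enkur and Capsl are genes of ciliated cells, and the list of ependyma and choroid plexus markers was uneven as well: its 12 genes summed to 198, 95.5 and 93.7 TPM in controls and to 74.4, 92.1 and 118 TPM in Kdm1a-ifKO mice. Ttr was the most abundant marker of that list at 55.6 TPM, no marker was without control counts, and their part in the result was not tested.

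The 137 increased genes lay in 211 of the 2581 long loops; loops overlap, so a gene can count in several, and 5740 of the 12135 enclosed genes lay in more than 1. The most in a loop was 5, in a loop of 1214.1 kb and 3 PETs (0.619 to 8.77) on chromosome 11 that joined Sept9 and Rbfox3; this loop and its genes were chosen after their values were seen. Sept9 is a septin and Rbfox3 encodes the neuronal splicing factor NeuN. Birc5, which guards chromosome segregation and cell survival, had 1.2, 1.1 and 1.2 CPM in controls and 3.4, 2.4 and 3.4 CPM in Kdm1a-ifKO mice. Tk1, the thymidine kinase of dividing cells, had 1.6, 1.8 and 1.2 CPM in controls and 5.2, 4.3 and 4 CPM after the deletion. The remaining 3, Afmid, Tmc6 and Tmc8, are an enzyme of tryptophan breakdown and a pair of transmembrane channel-like genes. Tk1 and Afmid overlap on opposite strands, as do Tmc6 and Tmc8, so the 5 genes may not be separate changes.

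A single long loop had an increased gene at each anchor, and it too was chosen after its values were seen. It spanned 1100 kb of chromosome 15 with 6 PETs, from Fignl2, a fidgetin-like ATPase, to Igfbp6, a binding protein of insulin-like growth factors. Fignl2 went from 1.25, 1.73 and 1.5 to 5.8, 6.39 and 5.08 CPM (log2 fold change 1.94, SE 0.19, edgeR adjusted p 1.73e-05). Igfbp6 went from 9.35, 7.39 and 8.64 to 16.6, 17.9 and 19.3 CPM (log2 fold change 1.08, SE 0.11, edgeR adjusted p 2.33e-05).

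Kdm1a itself lay in 1 long loop, of 1144.1 kb and 3 PETs on chromosome 4, from Fuca1, a lysosomal fucosidase gene, to a segment without a gene. This loop held 36 genes, 16 of them protein-coding and at 5 TPM or more. The highest was C1qb, a complement subunit made by microglia, at 163 TPM. C1qb had 44.9, 43.9 and 45 CPM in controls and 48.0, 59.0 and 64.0 CPM in Kdm1a-ifKO mice, a log2 fold change of 0.35 (edgeR adjusted p 0.0381) that lies under the size limit of 0.5. The 12 microglia markers, of which C1qb is the most abundant, summed to 824, 758 and 818 TPM in controls and to 867, 1030 and 1160 TPM in Kdm1a-ifKO mice. None of the 12 was called in either direction or was without counts, and their part in the result was not tested. E2f2, a cell cycle transcription factor named after its values were seen, was the only increased gene in this loop, at 1.83, 1.89 and 1.77 CPM in controls and 4.21, 3.8 and 3.44 CPM after the deletion.

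The calls of listed genes inside long loops are descriptions, given beside the 3.15% of all tested genes that were higher. Mixl1, a homeobox gene of early development, had no counts in the 3 controls and 12, 11 and 14 counts in the Kdm1a-ifKO libraries, at least 12.1-fold higher against a floor of 3 counts over the controls. It was the only 1 of the 43 tested developmental transcription factors inside long loops that was called higher. Kl, the anti-ageing hormone gene klotho and a marker of choroid plexus, lay in a loop of 8 PETs and rose from 23.8, 22.4 and 26.8 to 60.5, 56.3 and 60 CPM (log2 fold change 1.28, SE 0.07, edgeR adjusted p 1.32e-07). It was the only 1 of the 12 ependyma and choroid plexus markers called, and the median log2 fold change of that list was -0.46. Ctcf, inside a loop of 3 PETs, had 81.8, 85.6 and 84.1 CPM in controls and 86.2, 76.8 and 86.1 CPM in Kdm1a-ifKO mice, with overlapping groups.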

How the data were processed

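Loops came from 1 CTCF ChIA-PET library and gene counts from 6 RNA libraries. The authors processed the ChIA-PET reads with ChIA-PIPE on mm10, called peaks with MACS2 without input, and kept loops of 3 PETs or more with a peak at each anchor; the deposited file gives the PET count per loop. For RNA, the authors trimmed reads with cutadapt 1.18, aligned them to GRCm38 with HISAT2 2.1.0 and deposited HTSeq 0.11.1 counts per gene. Of 48795 counted genes, 48349 were placed by Ensembl identifier on GENCODE M21 (GRCm38), and the other 446 held 0.0645% of control counts.

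A gene was inside a loop when its body lay between the outer anchor edges, and at an anchor when within 10 kb. TPM used summed exon length. Tests used edgeR 4.0.16 in R 4.3.3 (filterByExpr, TMM, robust quasi-likelihood, Benjamini-Hochberg over all tested genes), tested on simulated data; other work used Python 3.11.15, pandas 2.3.3, scipy 1.17.1 and samtools 1.23.1. Named loops were the 10 with most PETs (passing over loops that overlap a stronger one at both anchors), those with most genes, with most expressed genes and longest without a protein-coding gene, and those at the limits. Named genes were those at and up to 3 inside each such loop, the 10 most abundant and 5 longest inside, the 10 largest increases and 5 largest decreases inside and at anchors (1 CPM or more in the higher group, groups not overlapping), Kdm1a and listed genes. Alternatives were DESeq2 1.42.0, its size factors, no filter, a replicate block, each library left out, and other limits of distance, PET count, expression, motif match and place. Members and lists were chosen with earlier results of these data known. The other assays of the series were not used here. Results for some genes are not reported here.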

Additional observations from a re-analysis of the deposited data

How the results depend on the processing

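With distances between outer anchor edges 2594 loops were long, between inner edges 2567, and joining loops that overlap at both anchors left 2581. Requiring 5 PETs raised the median PET count to 8. The median number of genes was 2 for protein-coding genes only and 6 at 10 PETs or more. The share of enclosed genes past the expression limit was 33.0% at 1 TPM, 50.9% for protein-coding genes and 13.6% at 10 PETs or more. Without loops of 10 or more protein-coding genes, chosen after seeing the data, the shares of protein-coding genes by PET class were 55.3%, 58.1%, 57.8% and 50.5%. The convergent share was 80.9% with 1 mismatch (713 loops) and 93.9% at 10 PETs or more (49 loops). With a log2 fold change beyond 1, genes higher and lower were 69 and 4 inside and 22 and 2 at anchors; at 10 PETs or more they were 16 and 2 inside and 9 and 3 at anchors, by construction fewer. Without a filter on low counts they were 169 and 33 inside and 47 and 14 at anchors.

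Leaving out each library in turn gave 115 to 129 genes higher and 6 to 33 lower inside, and 37 to 45 higher and 1 to 15 lower at anchors, so counts of lower genes rest on single libraries. Lower genes inside and at anchors numbered 33 and 15 with the second Kdm1a-ifKO library left out, 19 and 11 with the first control left out, and 6 and 2 with the third control left out. Leaving out the first Kdm1a-ifKO library gave 6 and 1, and leaving out the third gave 7 and 1. The cause was not tested. DESeq2 shared 115 of 137 higher and 7 of 10 lower genes inside, and 36 of 42 higher and 3 of 7 lower at anchors. Kdm1a stayed lower under DESeq2, the block and every library left out (log2 fold change -1.09 to -1.05). Of the 17 largest increases 1, Gja3, lost its call at least once, and all 8 decreases other than Kdm1a did. DESeq2 gave no adjusted p for Mixl1 (log2 fold change 6.02), and C1qb passed the limit of adjusted p in only 1 of the 6 fits with a library left out. Same-numbered libraries did not deviate together (r -0.0326, -0.0911 and -0.148), so the numbers are not taken as pairs; with the replicate block 122 genes were higher and 8 lower inside, and 37 and 3 at anchors, where 2 of the 7 lower genes were shared.

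Loops of 3 PETs have wide counting intervals, a single library gives no replicate of any loop, and loops below 3 PETs are outside these data, so a missing loop shows nothing about contact. RNA of the whole tissue includes cells other than the neurons whose loops were measured.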
